A study of Mus musculus with 6 samples.

Results

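Circadian clock genes were described in gastrocnemius muscle, a mixed but mostly fast calf muscle, of male C57BL/6J mice. The 10 genes were Clock, Per1, Per2, Per3, Cry1, Cry2, Nr1d2, Dbp, Tef and Nfil3. They were chosen by name from the platform annotation of the expression array, out of 18193 genes with a probe set, and all 10 passed the signal filter that left 11526 genes for testing. They had 24 probe sets, and the brightest of each gene by mean log2 signal stood for it.

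The study held 6 arrays, 1 for every combination of 3 diets and 2 fasting times, each hybridised with RNA pooled within the group. From 6 weeks of age the mice ate, over 15 weeks, HF+SFC+ALA, HF or Control food. HF food drew 60% of its energy from fat. HF+SFC+ALA food was the same with 0.023% of the iron salt sodium ferrous citrate (SFC) and 0.2% 5-aminolevulinic acid phosphate (ALA, a heme precursor) by weight. Control food drew 10% of its energy from fat. Muscle was taken after 24 h or 4 h without food. The labels give an age of 21 months, which goes against the start and length of feeding. Neither the number of animals in a pool nor the clock time of sampling is given in these sources, so length of fasting and time of day cannot be told apart in any comparison of 24 h with 4 h. With 1 pool for each combination there were no replicates, and 6 arrays limit the precision.

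The mammalian clock is a loop of transcription that runs in nearly every cell. CLOCK and its partner BMAL1 switch on the Period and Cryptochrome genes through E-boxes, and the PER and CRY proteins come back to silence them. A second loop runs through the nuclear receptors REV-ERB (Nr1d1, Nr1d2), which repress, and ROR, which activate, at a shared site. The output factors DBP and TEF activate genes through D-boxes, and NFIL3 represses at the same site. In muscle the clock sets daily rhythms of fuel use, and feeding, fasting and glucocorticoids can shift it.

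The promoters of the clock genes are shown because members of the loops act on each other's promoters. RefSeq (GRCm38.p6) gave 250 bases before the start of 9 of the 10 genes, and the most upstream start was used where there were several. Both strands were searched for an E-box (CACGTG), a D-box (TTANGTAA), a cyclic AMP response element (TGACGTCA) and the core letters of the site shared by ROR and REV-ERB (AGGTCA, called the ROR site here), and matches are in capitals. No match overlapped another. The stretch around the matches is shown, on the strand of the gene, with TGACCT as the ROR site read on the other strand. Of the 9 promoters, 6 held at least 1 match. Per3 held 2 D-boxes (minus strand, chr4:151044666-151044915), Per1 an E-box and an ROR site (plus strand, chr11:69098699-69098948), and Cry1 an E-box (minus strand, chr10:85185067-85185154). Tef held an E-box (plus strand, chr15:81802506-81802593), Nr1d2 an ROR site (minus strand, chr14:18239136-18239223), and Nfil3 an ROR site (minus strand, chr13:52981040-52981091).
Per3: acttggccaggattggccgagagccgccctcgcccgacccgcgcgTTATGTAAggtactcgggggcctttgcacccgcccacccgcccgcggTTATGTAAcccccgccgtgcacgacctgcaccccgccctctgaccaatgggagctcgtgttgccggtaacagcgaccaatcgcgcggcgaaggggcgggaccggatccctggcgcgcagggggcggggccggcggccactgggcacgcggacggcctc
Per1: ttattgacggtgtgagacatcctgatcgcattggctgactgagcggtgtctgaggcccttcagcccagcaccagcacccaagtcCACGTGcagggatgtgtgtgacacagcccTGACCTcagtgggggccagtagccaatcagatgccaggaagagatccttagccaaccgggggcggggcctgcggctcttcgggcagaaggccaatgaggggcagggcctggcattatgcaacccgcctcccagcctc
Cry1: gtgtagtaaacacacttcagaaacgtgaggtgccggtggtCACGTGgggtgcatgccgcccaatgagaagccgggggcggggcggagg
Tef: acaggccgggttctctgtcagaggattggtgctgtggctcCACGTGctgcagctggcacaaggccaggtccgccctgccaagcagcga
Nr1d2: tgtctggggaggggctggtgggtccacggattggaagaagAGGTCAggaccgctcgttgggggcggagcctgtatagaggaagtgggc
Nfil3: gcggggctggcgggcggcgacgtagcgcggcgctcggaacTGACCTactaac

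Among all 32851 promoter windows of the same length, 6.02% held the E-box, 2.06% the D-box, 1.55% the cyclic AMP response element and 14% the ROR site. The windows before the most upstream starts of Clock, Cry2 and Dbp held none of these letters. A match is a description of the sequence and not a site shown to be bound.

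Signals are MAS5 intensities on a linear scale, and differences are on the log2 scale with the standard error (SE) of an additive limma fit of diet and fasting time over the 6 pools. P-values were adjusted by Benjamini-Hochberg over all 11526 genes, with 0.05 as the threshold. The arrays were alike in median signal (63.0 to 69.5), and the actin controls had 3' to 5' ratios of 1.08 to 1.52, with the HF pool at 4 h on top. All 8 muscle fibre markers were bright, with summed signal of 333254 to 388706 over the pools, and all 3 brain markers were at the floor in at least 1 pool. In whole muscle, fewer cells that express a gene and less of its RNA per cell cannot be told apart.

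The first question was how the clock genes stood after 24 h of fasting against 4 h. Nfil3, the D-box repressor, fell 1.47-fold. The other 9 genes did not pass. Their differences ran from 0.75 for Per3, a Period gene, to -0.40 for Cry1, a Cryptochrome gene. The fit called 1 of the 10 clock genes, beside 2.41% of all genes tested (0.92% lower and 1.49% higher), and the median difference was -0.03 over the clock genes and 0.01 over all genes. Differences had the same sign in all 3 diets for 5 of the 10 (Clock, Per3, Cry1, Nr1d2 and Nfil3), against 39.4% of all genes. The sign was negative for 4 of the 10 (18.3% of all genes) and positive for 1 (21%). An unadjusted p under 0.05 was found for 5 of the 10 and for 17.7% of all genes. None was at least 1.5-fold apart in every diet, a size that 0.555% of all genes reached.

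**Figure D1:**
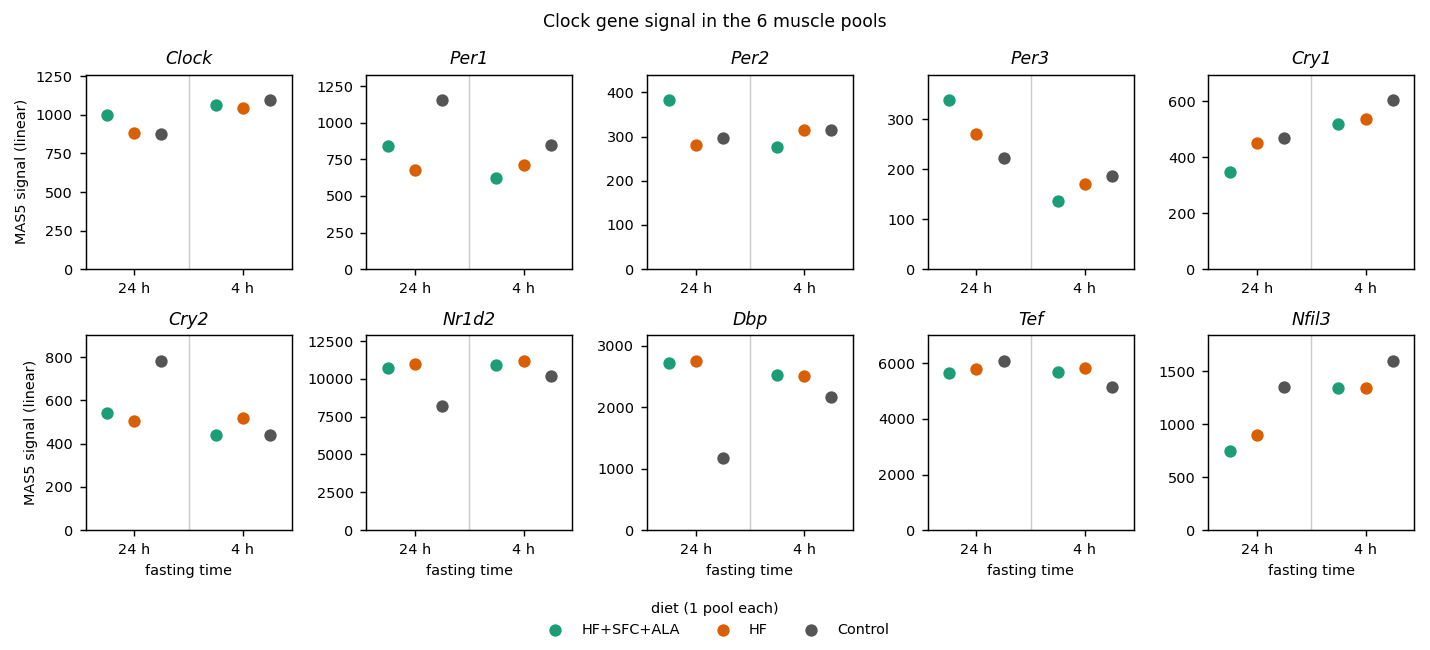
Signal of the 10 clock genes on a linear scale from 0, 1 point for each pool, with 24 h left of 4 h and the diets HF+SFC+ALA, HF and Control from left to right within each time. Nfil3 was lowest in the HF+SFC+ALA and HF pools at 24 h (744 and 902), Per3 was higher in the 24 h pools than in the 4 h pools, and Dbp was low in the Control pool at 24 h (1176).

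In the negative arm of the loop, Per3 had signals of 339, 269.6 and 222 at 24 h in the HF+SFC+ALA, HF and Control pools, against 136, 169.9 and 186 at 4 h. Every 24 h pool lay above every 4 h pool. On this probe set the order of the diets also turned round, HF+SFC+ALA being the highest of the diets at 24 h and the lowest at 4 h. The differences were 1.32 in HF+SFC+ALA, 0.67 in HF and 0.26 in Control, and the fit gave 0.75 ± 0.22 (limma, adjusted p = 0.117). Leaving out a pool takes its whole diet out of this estimate, so either pool of a diet gives the same value. The estimate was 0.99 without a Control pool and 0.46 without an HF+SFC+ALA pool. Other Per3 probe sets that passed the filter read 0.43 and 0.33, and those below it 0.97, 0.73 and -0.01. The probe set at 0.43 was positive in every diet, but HF+SFC+ALA was its highest diet at 4 h (112, against 94 in HF and 109 in Control). The probe set at 0.33 was positive with HF (1.12) but not with HF+SFC+ALA (-0.03) or Control (-0.10), and HF was its highest diet at 24 h.

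Per1, the Period gene that also answers to glucocorticoids and cyclic AMP, had signals of 842, 676 and 1157 at 24 h in the same order of diets, against 621, 713 and 850.4 at 4 h. It was higher at 24 h with HF+SFC+ALA (0.44) and Control (0.44) but not with HF (-0.08), and the groups overlapped. The fit gave 0.27 ± 0.12 (limma, adjusted p = 0.294). Per2, its close relative, had signals of 383, 281 and 296 at 24 h against 277, 316 and 316 at 4 h. Only the HF+SFC+ALA pool was higher at 24 h among the 3 diets, and the fit gave 0.07 ± 0.16 (limma, adjusted p = 0.878). The other probe sets of Per2 gave 0.18 and -0.48.

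Cry1, which encodes the stronger repressor of the Cryptochrome pair in the clock loop, had signals of 348, 452 and 468 at 24 h in HF+SFC+ALA, HF and Control pools, against 520.0, 536 and 605 at 4 h. All 3 pools at 24 h lay below all 3 at 4 h. The difference was -0.40 ± 0.12 (limma, adjusted p = 0.127). Cry2 went the other way in 2 diets, with signals of 541, 504 and 784 at 24 h against 441, 518 and 441 at 4 h. Its differences were 0.30 in HF+SFC+ALA, -0.04 in HF and 0.83 in Control, and the fit gave 0.36 ± 0.16 (limma, adjusted p = 0.278). The Control pool at 24 h stood above the other 5 pools, which ran from 441 to 541.

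In the positive arm, Clock had signals of 997, 883 and 874 at 24 h in HF+SFC+ALA, HF and Control pools, against 1064, 1043 and 1098 at 4 h. The groups did not overlap, but the difference was small, at -0.22 ± 0.09 (limma, adjusted p = 0.253). Of its other probe sets, those above the signal filter read -0.11 and -0.09, and 1 below it 0.60. Clock, Per3 and Cry1 were the 3 of 10 genes whose 24 h and 4 h pools did not overlap, where 18.9% of all genes tested had no overlap.

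Nr1d2, which encodes the repressor REV-ERB beta, had signals of 10749, 10969 and 8222 at 24 h against 10916, 11196 and 10189 at 4 h. In the high-fat diets the times differed by -0.02 (HF+SFC+ALA) and -0.03 (HF), whereas the Control pools differed by -0.31. The fit gave -0.12 ± 0.07 (limma, adjusted p = 0.454), and its other probe set gave 0.08.

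Among the output factors at D-boxes, Nfil3 had signals of 744, 902 and 1349.9 at 24 h in HF+SFC+ALA, HF and Control pools, against 1341, 1342 and 1599.6 at 4 h. The fall was largest with HF+SFC+ALA (-0.85), then HF (-0.57) and Control (-0.24), and the Control pool at 24 h overlapped the 4 h pools. The fit gave -0.56 ± 0.12 (limma, adjusted p = 0.0456). Leaving out a pool takes its whole diet out of the fasting estimate, so either pool of a diet gives the same value. The difference was -0.71 without a Control pool, -0.55 without an HF pool and -0.41 without an HF+SFC+ALA pool. The call did not hold without an HF or HF+SFC+ALA pool. Quantile normalization, no signal filter, the mean over probe sets, no intensity trend and a fit without diet also ended it (limma, adjusted p from 0.0566 to 0.422), at a difference of -0.55 to -0.56. Nfil3 has 1 probe set. Of the smooth muscle markers 2 of 3 fell with fasting. The summed signal of all 3 was 7273, 10582 and 7986 at 24 h in HF+SFC+ALA, HF and Control pools, against 9885, 13243 and 11772 at 4 h. The fibroblast marker Col1a1, a collagen gene, fell by 0.62 ± 0.09 (limma, adjusted p = 0.0129) and was the 1 of 5 fibroblast markers called. The median of the 5 was 0.09, with 3 positive in the fit and 2 negative in every diet. Of the adipocyte markers 0 of 5 were called (limma), but all 5 had an unadjusted p under 0.05, with a median of -0.80. In every diet 4 were negative, and Fabp4, the brightest of the 5, was positive (fit 0.21 ± 0.07). The part of these markers in the clock gene values was not tested.

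Dbp, an activator at D-boxes and one of the genes with the strongest daily rhythm in many tissues, had signals of 2725, 2754 and 1176 at 24 h in HF+SFC+ALA, HF and Control pools, against 2526, 2500.1 and 2163 at 4 h. The Control pool at 24 h was the lowest, with the other 5 between 2163 and 2754. The differences were 0.11, 0.14 and -0.88, and the fit over the diets gave -0.21 ± 0.17 (limma, adjusted p = 0.583). Its other probe set showed the same pattern, with signals of 1896, 2004 and 650.1 at 24 h against 1569.99, 1594 and 1364 at 4 h. Tef, its relative, had signals of 5644, 5791 and 6093 at 24 h against 5677, 5849 and 5144 at 4 h. It varied least of the 10 genes over the pools, with a range of 0.24, and the fit gave 0.07 ± 0.07 (limma, adjusted p = 0.671).

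**Figure D2:**
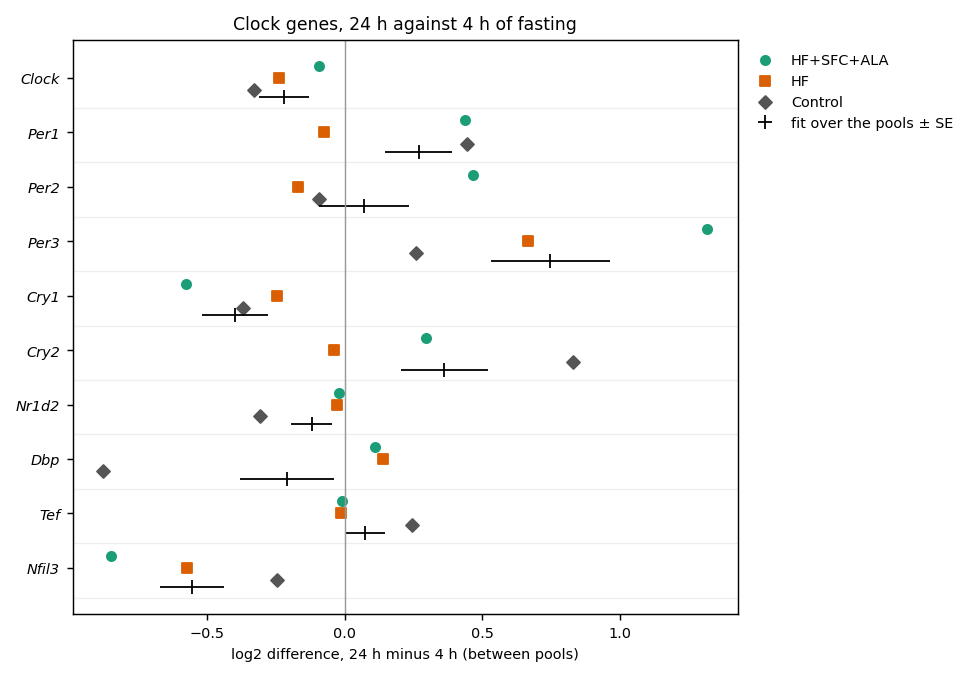
Log2 difference of 24 h minus 4 h for each clock gene, 1 coloured point for each diet (a difference between 2 pools) and a black bar for the fit over all pools with its SE. Per3 lay above 0 and Cry1, Clock, Nr1d2 and Nfil3 below 0 in all diets, and Dbp lay at -0.88 in Control against 0.11 in HF+SFC+ALA and 0.14 in HF.

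The Control pool at 24 h was the lowest of the 6 pools for Clock, Nr1d2 and Dbp and the highest for Per1, Cry2 and Tef. It was thus at an end of the range for 6 of 10 clock genes, where it was lowest for 21% and highest for 22.9% of all genes tested. Whether the fasting response differed between the high-fat diets and Control was tested with an interaction term, with the HF+SFC+ALA and HF pools taken as samples of 1 kind. This model was added after the low Dbp value had been seen. Each Control pool is alone at its time in this model and is fitted exactly. The SE and p therefore hold only the spread between HF+SFC+ALA and HF pools, and none between Control pools. For Dbp the high-fat response exceeded the Control response by 1.004 ± 0.16, with an unadjusted p of 7.9e-05 (limma, adjusted p = 0.114), and its other probe set gave 1.37 (limma, adjusted p = 0.0561). No clock gene passed (limma), 2 had an unadjusted p under 0.05 (Dbp and Cry2, beside 5.01% of all genes), and 0.00868% of all genes tested were called, which is 1 gene, Nmrk2. The term for Cry2 was -0.70 ± 0.25 (limma, adjusted p = 0.96) and for Per3 0.73 ± 0.39 (limma, adjusted p = 0.995). The 3' to 5' ratios of the Control pool at 24 h were 1.08 for actin and 0.863 for GAPDH, against 1.09 to 1.52 and 0.814 to 0.843 in the other pools, and their part in the Dbp value was not tested.

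As a description over the 6 pools, which share diets and fasting times, the log2 signals of Dbp and Nr1d2 had a Pearson r of 0.978 (Spearman's rho 0.6). Without the Control pool at 24 h it was 0.701. Dbp and Per1 gave -0.856, or -0.362 without that pool, and Dbp and Cry2 -0.808, or 0.702 without it. The relations of Dbp with Per1 and Cry2 therefore rest on that pool, and that with Nr1d2 was weaker without it. Cry1 and Nfil3 gave 0.923 (rho 0.829), and 0.97 without it. Per3 and Nfil3 gave -0.829 (rho -0.486), and -0.875 without it.

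The widest range over the pools was that of Per3 (1.32), and Nfil3 ran most opposite to it. Of 4599 other genes with a range of at least 0.58 and no value at the floor, Apoa2 (r = 0.983), Fam120aos (0.973), Mbip (0.968) and 2810403D21Rik (0.968) followed Per3 most closely over the 6 pools. Apoa2 (signals of 55 to 97) and 2810403D21Rik (55 to 93) lay near the median signal of the arrays (63.0 to 69.5), and detection calls were not used. The same search for Nfil3 gave Tppp (0.992), Cdkn1a (0.989), Napepld (0.986) and Zfp652os (0.983). With so few pools an r above 0.9 was reached by 31 genes for Per3 and 41 for Nfil3. Cdkn1a, which encodes the cell cycle inhibitor p21, had signals of 545, 667 and 1069 at 24 h in HF+SFC+ALA, HF and Control pools, against 959, 1113 and 1304 at 4 h.

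The second comparison set HF against Control over both fasting times. No clock gene passed in the limma fit (0 of 10, beside 0.885% of all genes, 0.564% higher and 0.321% lower), and 4 had an unadjusted p under 0.05, beside 14.7% of all genes. These were Dbp and Nr1d2, which stood higher in HF, and Per1 and Nfil3, which stood lower. The same 4 genes were those whose HF and Control pools did not overlap, a feature of 38.7% of all genes tested. The sign was the same at both times for 5 of the 10 (59.9% of all genes), positive for 2 (29.4%) and negative for 3 (30.6%), and 0 were at least 1.5-fold apart at both times (2.22%). The median difference was -0.03 over the clock genes and -0.0002 over all genes.

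Dbp had signals of 2754 and 2500.1 in the HF pools at 24 h and 4 h, against 1176 and 2163 in the Control pools. The difference was 1.23 at 24 h and 0.21 at 4 h, and the fit gave 0.72 ± 0.21 (limma, adjusted p = 0.169). Nr1d2 stood higher by 0.42 at 24 h and 0.14 at 4 h (fit 0.28 ± 0.09, limma, adjusted p = 0.218), with a fitted fold of 1.21. In both genes most of the difference came from the 24 h pools.

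Per1 had signals of 676 and 713 in the HF pools at 24 h and 4 h, against 1157 and 850.4 in the Control pools, and differed by -0.77 and -0.25 (fit -0.51 ± 0.15, limma, adjusted p = 0.169). Nfil3 had 902 and 1342 in HF pools against 1349.9 and 1599.6 in Control pools, and differed by -0.58 and -0.25 (fit -0.42 ± 0.14, limma, adjusted p = 0.225). Both genes were lower in HF at each time, by more at 24 h. The other 6 clock genes had fitted differences from -0.20 (Cry2) to 0.08 (Per3). Cry2 was -0.64 at 24 h and 0.23 at 4 h.

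The fitted differences moved with the pool left out. Without the Control pool at 4 h the difference was 1.22 for Dbp, -0.65 for Per1 and -0.65 for Nfil3. Control then rests on its 24 h pool alone, which is fitted exactly, so that fit measures no spread between Control pools. Without the HF pool at 4 h the difference of Per1 was -0.77. Without the Control pool at 24 h the difference was 0.22 for Dbp, -0.38 for Per1 and -0.18 for Nfil3. The adipocyte markers moved with this diet: 3 of 5 measured markers rose in HF (Lep, Adipoq and Cidec). The summed signal of all 5 was 37023 and 32800.1 in the HF pools at 24 h and 4 h, against 26934 and 22938 in the Control pools. Most of that sum was Fabp4, which was not called (31773 and 26497 in HF, 26207 and 21626 in Control). Adipoq alone stood at 4280 and 4637 in HF, against 577 and 901 in Control. Lep and Retn were at the floor in at least 1 pool. Of the fibroblast markers 2 of 5 and of the smooth muscle markers 1 of 3 also rose in HF, and 0 of 5 macrophage markers were called (limma, 3 at an unadjusted p under 0.05). The part of these markers in the clock gene values was not tested.

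**Figure D3:**
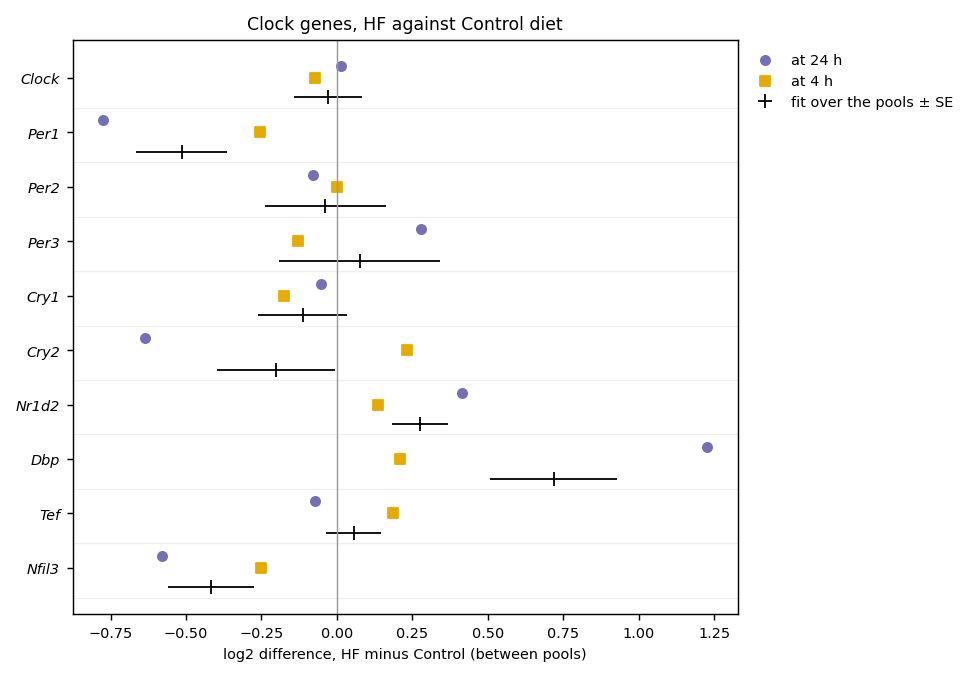
Log2 difference of HF minus Control for each clock gene at 24 h and at 4 h, each a difference between 2 pools, with the fit over all pools and its SE as a black bar. Dbp lay at 1.23 at 24 h and 0.21 at 4 h, and Per1 and Nfil3 lay below 0 at both times.

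The third comparison asked what the iron salt and heme precursor did on top of the high-fat diet, with HF+SFC+ALA set against HF. It shares the HF pools with the second comparison. No clock gene passed (limma, 0 of 10, with 0 at an unadjusted p under 0.05), and 0% of all genes were called (585 genes, 5.08%, at an unadjusted p under 0.05). Fitted differences ran from -0.21 ± 0.15 (Cry1, limma, adjusted p = 0.973) to 0.13 ± 0.20 (Per2, limma, adjusted p = 0.979). The median size of a difference was 0.06 over the clock genes and 0.11 over all genes. All 5 adipocyte markers were lower with the supplement at both times (median -1.68), with 0 called and 3 at an unadjusted p under 0.05 (limma). All 3 smooth muscle markers were also lower at both times (median -0.43), with 0 called and 2 at such a p (limma). The medians were -0.10 for fibroblast, -0.14 for macrophage and 0.18 for endothelial markers. The part of these markers in the clock gene values was not tested.

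Dbp had signals of 2725 (24 h) and 2526 (4 h) with HF+SFC+ALA, against 2754 and 2500.1 with HF, with differences of -0.02 and 0.01. Nr1d2 (-0.03 and -0.04) and Tef (-0.04 and -0.04) were as close at both times. The Period genes differed in sign between the times: Per1 stood at 0.32 at 24 h and -0.20 at 4 h, Per2 at 0.45 and -0.19, and Per3 at 0.33 and -0.32. Cry2 did the same, at 0.10 and -0.23. Cry1 was lower with the supplement at 24 h (-0.37) and stood at -0.04 at 4 h, and Nfil3 gave -0.28 at 24 h with nearly equal signals at 4 h (1341 and 1342). The pools did not overlap for 2 of 10 clock genes, against 28.9% of all genes. The sign was the same at both times for 5 of the 10 (50.7% of all genes), positive for 1 (24%) and negative for 4 (26.7%), and 0 were at least 1.5-fold apart at both times (0.989%). The other probe set of Nr1d2 gave 0.51 ± 0.22 (limma, adjusted p = 0.968) in this comparison.

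**Figure D4:**
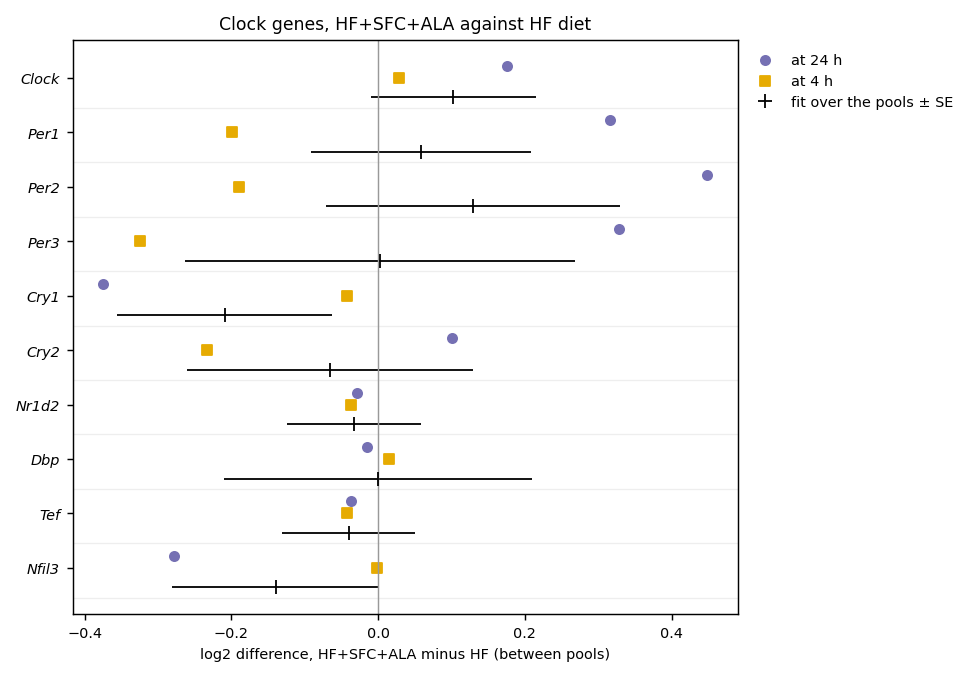
Log2 difference of HF+SFC+ALA minus HF for each clock gene at 24 h and at 4 h, each a difference between 2 pools, with the fit over all pools and its SE as a black bar. Per1, Per2, Per3 and Cry2 lay above 0 at 24 h and below 0 at 4 h, and Dbp lay at -0.02 and 0.01.

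Other genes of the loops were read from a list. Of 12 listed, 8 passed the signal filter, and 0 were called in any of the 3 comparisons (limma), with 1 in the fasting comparison, 2 in HF against Control and 1 in HF+SFC+ALA against HF at an unadjusted p under 0.05. Of all genes tested, 17.7%, 14.7% and 5.08% had such a p in these 3 comparisons. Arntl, which encodes BMAL1, the partner of CLOCK, had signals of 723, 685 and 929 at 24 h in HF+SFC+ALA, HF and Control pools, against 820.5, 819.8 and 892 at 4 h. It differed by -0.13 ± 0.10 with fasting and by -0.28 ± 0.12 in HF against Control (limma, adjusted p = 0.575 and 0.34). Nr1d1, which encodes REV-ERB alpha, differed by -0.20 ± 0.11 with fasting (limma, adjusted p = 0.419), and Rora, which encodes the activator at the same site, by 0.20 ± 0.07 (limma, adjusted p = 0.179). Rora was lower in HF than in Control at both times, by -0.37 ± 0.08 in the fit (limma, adjusted p = 0.1).

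Ciart, a repressor of CLOCK and BMAL1, had signals of 254, 254 and 184 at 24 h in HF+SFC+ALA, HF and Control pools, against 178, 173 and 267 at 4 h. Its differences of 0.52, 0.55 and -0.53 ran with the sign of those of Dbp in each diet. Hlf, the relative of Dbp and Tef, gave 0.16, -0.59 and -0.77 in the same order, and Bhlhe40, a repressor at E-boxes, -0.24, 0.19 and -0.44. Bhlhe41 and Timeless gave fitted fasting differences of 0.19 and 0.20. Arntl2, Npas2 and Rorb had a probe set that did not pass the signal filter.

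Proteins that set the stability of PER and CRY formed a further list, with 11 of 14 tested. One gene rose with fasting, Csnk1d, which encodes the casein kinase 1 delta that phosphorylates PER proteins. Its signals were 1711, 1699.8 and 1863 at 24 h in HF+SFC+ALA, HF and Control pools, against 1271, 1334 and 1462 at 4 h, with no overlap. The differences were 0.43, 0.35 and 0.35 (fit 0.38 ± 0.08, limma, adjusted p = 0.0449). The call ended in 5 of 8 other settings and without any 1 high-fat pool (limma, adjusted p from 0.0524 to 0.381), and the mean over probe sets gave 0.21. Csnk1e, its close relative, gave 0.26, 0.26 and 0.54 (fit 0.35 ± 0.09, limma, adjusted p = 0.0881). The other 9 lay between -0.08 and 0.20. In the fasting comparison 4 of the 11 had an unadjusted p under 0.05 (limma), beside 17.7% of all genes, and 2.41% of all genes were called. For either diet comparison 0 of the 11 were called (limma, 0 at an unadjusted p under 0.05 in each).

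**Figure D5:**
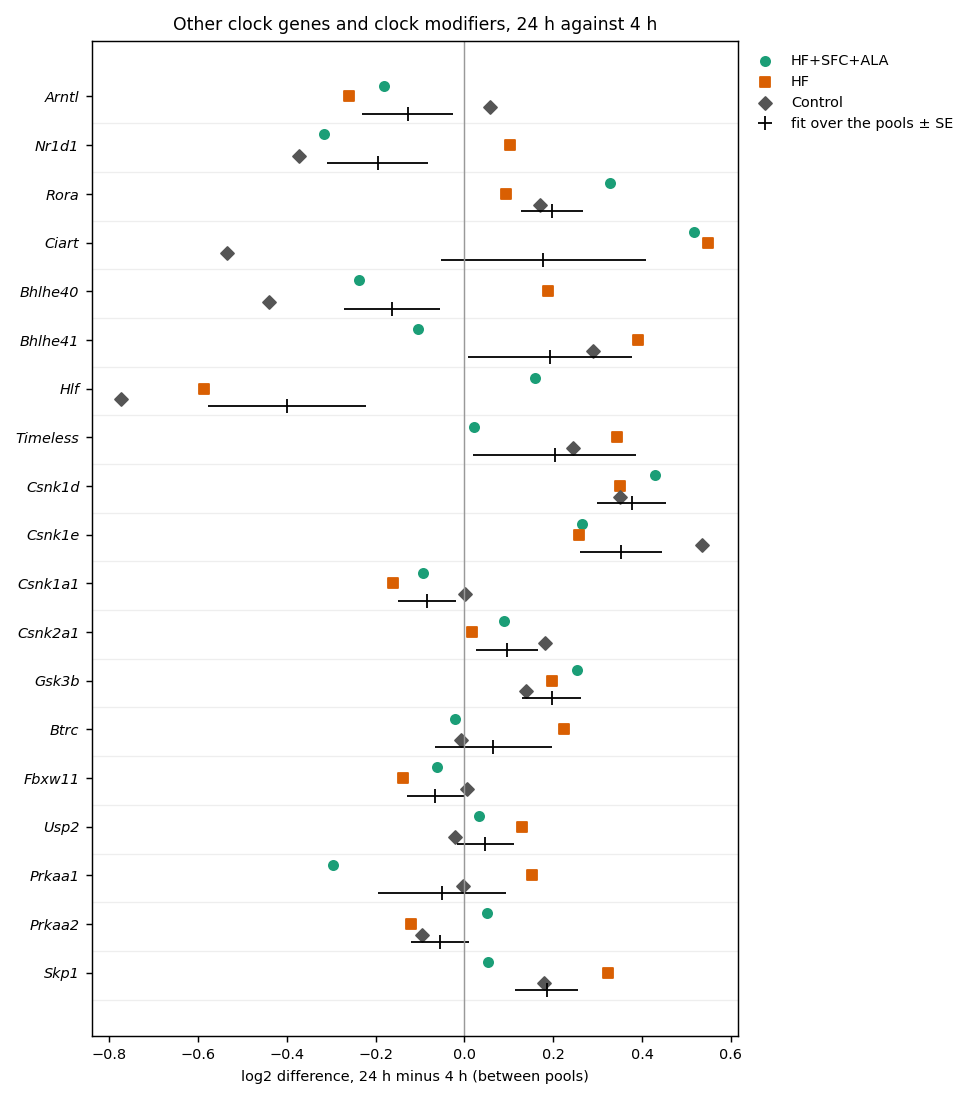
Log2 difference of 24 h minus 4 h for the other loop genes and for genes of clock protein stability, 1 coloured point for each diet and a black bar for the fit with its SE. Csnk1d lay at 0.43, 0.35 and 0.35 in HF+SFC+ALA, HF and Control, and Ciart at 0.52, 0.55 and -0.53.

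Among 12 genes listed as clock outputs in many tissues, 11 were tested. With fasting Klf10, a Krüppel-like repressor, rose by 0.62 ± 0.09 (limma, adjusted p = 0.0129), and 10 did not pass. The share of all genes called was 2.41% with fasting and 0.885% in HF against Control. In HF against Control Lpin1, a phosphatidate phosphatase, fell by 0.44 ± 0.08 (limma, adjusted p = 0.0346), and 10 did not pass. For HF+SFC+ALA against HF 0 were called (limma). At an unadjusted p under 0.05 (limma) were 5 of the 11 with fasting, 4 in HF against Control and 1 in this comparison. The shares of all genes with such a p were 17.7%, 14.7% and 5.08%. Usp2, a deubiquitinase that cycles in many tissues and is also in the list of clock protein stability, lay at 0.05 ± 0.06 with fasting.

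Per1 also belongs to the genes driven by glucocorticoids and by cyclic AMP, so these lists were set beside it. Of 10 glucocorticoid targets 3 fell with fasting, namely Sgk1 (-0.46 ± 0.07), Zbtb16 (-0.40 ± 0.08) and Dusp1 (-0.47 ± 0.07), 0 rose and 7 did not pass (limma, adjusted p = 0.0134, 0.0324 and 0.0111). All genes tested had 0.92% called lower and 1.49% called higher with fasting. In HF against Control Dusp1 rose (0.67 ± 0.08, limma, adjusted p = 0.00982) and 9 did not pass. The other 9 were all negative in the fit, 7 of them at both times, with a list median of -0.22, and 7 of the 10 (Dusp1 included) had an unadjusted p under 0.05, beside 14.7% of all genes. Cebpd, a transcription factor, stood at -1.35 ± 0.28 (limma, adjusted p = 0.0676), and Ddit4, an inhibitor of mTOR signalling, at -1.002 ± 0.24 (limma, adjusted p = 0.103). In both genes most of the difference came from the 24 h pools (-2.13 against -0.57 at 4 h for Cebpd, -1.67 against -0.34 for Ddit4). The Control pool at 24 h stood apart, at 6148 for Cebpd (1332 to 2783 in the other pools) and 4030 for Ddit4 (1113 to 2104). Of 9 cyclic AMP and immediate early genes Nr4a3 (-1.15 ± 0.18) and Ppargc1a (-0.9995 ± 0.17) fell with fasting (limma, adjusted p = 0.0136 and 0.0212), and 7 did not pass. In the diet comparisons 0 of these 9 were called (limma, 2 at an unadjusted p under 0.05 in each). The share of all genes with such a p was 14.7% in HF against Control and 5.08% in HF+SFC+ALA against HF. In the fasting comparison 4 of these 9 and 5 of the 10 glucocorticoid targets had such a p (limma), beside 17.7% of all genes. With fasting Per1 itself stood at 0.27 without passing.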

How the data were processed

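The authors deposited 1 table of intensity values, 1 signal per probe set and array on a linear scale. The submitters' processing notes name MAS5 without a version. A trimmed mean of 500.004 on every array shows a shared scale. Detection calls were not used.

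Of 45101 probe sets 64 controls were left out, and 34945 of the other 45037 had 1 gene symbol (932 several, 9160 none listed). Symbols were updated through the gene identifier. Each gene was represented by its brightest probe set (mean log2 signal). Genes were kept above the median mean log2 signal of non-control probe sets (5.88), and a floor at the 30th percentile of signal (26.4) was applied, which touched no clock gene's main probe set. Limma 3.58.1 in R 4.3.3 (lmFit, eBayes with an intensity trend) fitted diet and fasting time additively (2 residual and 7.27 prior degrees of freedom). With no replicate pools, p-values rest on the spread left after these terms, which holds any difference of the fasting response between diets. The fit was run on simulated data with independent noise and a fasting change alike in every diet. Such data hold no difference of the fasting response between diets, so they cannot show how calls stand where diets differ. Tables were handled in pandas 2.3.3 and numpy 2.4.6 under Python 3.11.15, and figures drawn with matplotlib 3.10.9.

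The clock genes and the lists were chosen with earlier results of these data known. Named are the 10 clock genes, members of the lists that passed, the other clock genes above the filter, and the 4 genes most like Per3 and Nfil3 by r; Csnk1e, Usp2, Cebpd, Ddit4, Col1a1, Nmrk2 and the values of genes set beside these were named after their values were seen. Alternatives changed normalization, filter, floor, probe set rule, trend and model, and left out each pool.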

Additional observations from a re-analysis of the deposited data

Results flagged for a closer look

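Differences that ran one way in both high-fat diets and the other way in Control, or one way at 24 h and the other way at 4 h against Control, were found in 4 clock genes. The sign change itself was not tested, and the share of all genes with such a change was not counted. The interaction term of fasting and high-fat feeding gave an adjusted p of 0.114 for Dbp and 0.995 for Tef, Per3 and Clock (limma).

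For Dbp the difference of 24 h minus 4 h was 0.11 in HF+SFC+ALA and 0.14 in HF, and -0.88 in Control. For Tef it was -0.0084 in HF+SFC+ALA and -0.014 in HF, and 0.24 in Control. The other probe sets of Tef did not show this pattern, with -0.10, 0.18 and 0.03 for one and -0.26, 0.28 and -0.48 for the other, in the same order of diets. Against Control, Tef in HF+SFC+ALA and HF stood at -0.11 and -0.073 at 24 h and at 0.14 and 0.19 at 4 h.

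Per3 in HF+SFC+ALA and HF stood at 0.61 and 0.28 against Control at 24 h, and at -0.45 and -0.13 at 4 h. Clock in HF+SFC+ALA and HF stood at 0.19 and 0.015 against Control at 24 h, and at -0.045 and -0.073 at 4 h. Each of these is a difference between 2 pools on the main probe set of the gene, and the other probe sets of Tef, Per3 and Clock did not all show the same signs.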

How the results depend on the processing

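Nfil3, the 1 clock gene called with fasting, was not called (0 clock genes called, limma) under quantile normalization, no signal filter, the mean over probe sets, no intensity trend or a fit without the other factor, with 2 to 4 clock genes at an unadjusted p under 0.05. It stayed the 1 call with the stricter filter, no floor or a pseudocount. All genes called with fasting were 278, against 0 with no filter (2026 at an unadjusted p under 0.05), 0 without the trend (1639), 18 with the mean over probe sets and 60 without the other factor. For HF against Control they were 102, against 0 with no filter (1993), 0 without the trend (1348), 1 with the mean over probe sets and 0 without the other factor (982). For HF+SFC+ALA against HF they were 0, against 6 with the filter at the 65th percentile. Leaving out each pool in turn, where the lone pool of a diet is assumed to vary like the others, gave 0 to 2 clock genes and 59 to 455 genes for fasting, 0 to 3 and 47 to 592 for HF against Control, and 0 to 0 and 0 to 109 for HF+SFC+ALA against HF. The 2 fasting calls were Nfil3 and Per3, without either Control pool. The Dbp interaction of 1.004 passed with no signal filter (limma), in a model that fits each Control pool exactly and measures no spread between Control pools. In 6 other settings and with the other probe set it was 0.99 to 1.37, and without a high-fat pool 0.996 to 1.01, with adjusted p (limma) of 0.0561 to 0.622. The 9 calls among the other lists (Csnk1d, Klf10, Zbtb16, Sgk1, Dusp1, Nr4a3 and Ppargc1a with fasting, Lpin1 and Dusp1 in HF against Control) kept their sign in all alternatives, were chosen for this check after the calls were seen, and were all lost with no filter and without the trend. Leaving out a pool ended none for Sgk1 and for Dusp1 in HF against Control, and ended 2 to 4 of 6 for each of the others.

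Values that turned sign were never called, and the cause was not tested. With the mean over probe sets, fasting gave Clock 0.045, Per2 -0.076 and Tef -0.016, HF against Control gave Per2 0.048 and Per3 -0.013, and HF+SFC+ALA against HF gave Per3 -0.035 and Nr1d2 0.24. Single other probe sets gave, for fasting, Nr1d2 0.081, Per2 -0.48, Per3 -0.0077, Tef -0.16 and Clock 0.60. They gave Per2 0.31, Per3 -0.59 and -0.49 and Clock 0.18 for HF against Control, and Nr1d2 0.51, Clock -0.27 and Per3 -0.46 and -0.66 for HF+SFC+ALA against HF. Leaving out a pool, fasting ranged over -0.13 to 0.19 for Per2, -0.39 to 0.12 for Dbp and -0.011 to 0.12 for Tef. HF against Control ranged over -0.11 to 0.052 for Clock, -0.22 to 0.14 for Per2, -0.29 to 0.44 for Per3, -0.23 to 0.00075 for Cry1, -0.55 to 0.15 for Cry2 and -0.072 to 0.18 for Tef. HF+SFC+ALA against HF ranged over -0.20 to 0.32 for Per1, -0.17 to 0.43 for Per2, -0.43 to 0.43 for Per3, -0.37 to 0.23 for Cry2, -0.11 to 0.041 for Nr1d2, -0.26 to 0.26 for Dbp, -0.11 to 0.026 for Tef and -0.36 to 0.081 for Nfil3.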
